A study of Homo sapiens with 8 samples.

Results

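The genes described here are 34 interferon-stimulated genes, listed by name as known targets of interferon signalling and not by a threshold on these values, in polyadenylated RNA from 2 human osteosarcoma lines. Of these 34 genes, 21 are listed in the table of the 143B line (of 12700 genes) and 31 in the table of the HOS line (of 12810 genes). HOS is an established osteosarcoma line, and 143B was derived from it. The groups are 143B cells labelled sgNAT10, HOS cells labelled sgNAT10, 143B cells labelled NC and HOS cells labelled NC, each with 2 libraries, 8 in all. The label sgNAT10 stands for a guide against NAT10, which acetylates cytidines in RNA, and NC for the control. The labels name no treatment with interferon, and they do not say whether the cells are 1 clone or a pool, or whether the libraries of a group are separate cultures. Values are FPKM, the authors' fragment counts scaled to transcript length and to the fragments mapped.

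Interferons are secreted when cytosolic or endosomal sensors detect foreign nucleic acid. They bind surface receptors whose JAK kinases activate STAT proteins, and STAT2 joins IRF9 in the complex ISGF3, which binds the interferon-stimulated response element (ISRE) in target promoters. The targets include more sensors and signalling factors, the ubiquitin-like protein ISG15 with its enzymes, RNA-binding IFIT proteins, OAS enzymes, IFITM membrane proteins and other antiviral effectors. Many tumour lines keep a low level of these genes without added interferon.

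NAT10 RNA was set beside the labels, although it cannot show whether the protein was lost. It stood at 9.05 and 7.19 FPKM in 143B sgNAT10 libraries, against 16.1 and 19.9 FPKM in 143B NC libraries, and fell, with a limma log2 change of -1.06 (SE 0.31, adjusted p = 0.0259). HOS libraries labelled sgNAT10 held 21.1 and 19.1 FPKM of it, against 14.9 and 16.2 FPKM in HOS NC libraries, for a change of 0.35 (SE 0.10, adjusted p = 0.00544). The targeted RNA was thus higher in the HOS libraries labelled sgNAT10, which goes against a loss of its RNA, and every direction given for HOS rests on the label alone. Library sums ran from 484793 to 798137 listed FPKM, and read depth is unknown.

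Several promoters are shown for genes that changed: IFIT1, IFIT3 and SAMD9 fell in HOS, ISG15, IFIT3 and MX1 rose in 143B, and UBE2L6, the conjugating enzyme of ISG15, fell in 143B. The 143B rises of IFIT3 and MX1 did not pass the test with libraries scaled to a common sum, or without either 143B sgNAT10 library. Sequences are RefSeq promoter windows of GRCh38.p14, each spanning the gene start that RefSeq annotates and lying mostly upstream of it, and 28 of the 34 genes had one. IFIT2, IFITM2, IRF7, OAS2, TRIM22 and USP18 had none. Capitals mark the ISRE core GAAANNGAA on either strand, in the shown letters or in their complement; overlapping matches run together.
IFIT1: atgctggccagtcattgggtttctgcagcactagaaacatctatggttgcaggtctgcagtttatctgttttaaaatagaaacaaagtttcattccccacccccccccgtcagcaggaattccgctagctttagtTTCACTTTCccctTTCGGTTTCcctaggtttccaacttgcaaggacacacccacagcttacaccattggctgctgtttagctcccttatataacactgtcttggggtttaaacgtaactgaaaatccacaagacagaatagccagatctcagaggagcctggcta
IFIT3: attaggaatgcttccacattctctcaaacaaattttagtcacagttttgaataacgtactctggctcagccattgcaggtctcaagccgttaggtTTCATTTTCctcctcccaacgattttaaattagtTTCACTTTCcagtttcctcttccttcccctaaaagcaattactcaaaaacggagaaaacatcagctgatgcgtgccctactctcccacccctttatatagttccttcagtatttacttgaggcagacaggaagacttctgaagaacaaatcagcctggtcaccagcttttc
SAMD9: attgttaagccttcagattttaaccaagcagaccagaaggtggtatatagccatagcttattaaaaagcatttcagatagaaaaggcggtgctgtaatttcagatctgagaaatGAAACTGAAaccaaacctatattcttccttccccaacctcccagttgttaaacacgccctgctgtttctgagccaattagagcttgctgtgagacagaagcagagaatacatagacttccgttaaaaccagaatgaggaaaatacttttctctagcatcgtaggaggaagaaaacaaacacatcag
ISG15: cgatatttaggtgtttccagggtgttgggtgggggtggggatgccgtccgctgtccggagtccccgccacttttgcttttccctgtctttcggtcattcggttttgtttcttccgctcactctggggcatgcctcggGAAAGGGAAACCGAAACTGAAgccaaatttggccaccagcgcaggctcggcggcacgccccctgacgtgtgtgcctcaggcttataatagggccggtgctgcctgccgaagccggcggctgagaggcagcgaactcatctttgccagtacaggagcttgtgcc
MX1: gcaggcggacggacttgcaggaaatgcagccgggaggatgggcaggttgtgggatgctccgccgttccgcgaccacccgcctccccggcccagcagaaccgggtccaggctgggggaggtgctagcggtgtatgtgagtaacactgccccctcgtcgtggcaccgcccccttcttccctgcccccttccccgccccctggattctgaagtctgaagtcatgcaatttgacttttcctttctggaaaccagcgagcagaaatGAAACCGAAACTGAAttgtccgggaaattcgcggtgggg
UBE2L6: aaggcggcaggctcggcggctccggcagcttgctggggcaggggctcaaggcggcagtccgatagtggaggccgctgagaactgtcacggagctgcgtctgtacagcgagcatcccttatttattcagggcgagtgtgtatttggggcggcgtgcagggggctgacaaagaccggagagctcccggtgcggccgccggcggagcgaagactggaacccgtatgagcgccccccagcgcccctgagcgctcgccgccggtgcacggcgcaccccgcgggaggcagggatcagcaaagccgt
RefSeq starts can differ from those of the GENCODE gene models whose spans are given further on: the window of ISG15 lies inside the GENCODE span of that gene, and those of UBE2L6 and MX1 do not hold the first base of the GENCODE span. The windows lie at chr10:89392373-89392672 (plus strand) for IFIT1, chr10:89327747-89328046 (plus strand) for IFIT3, chr7:93117930-93118229 (minus strand) for SAMD9, chr1:1013247-1013546 (plus strand) for ISG15, chr21:41420308-41420607 (plus strand) for MX1 and chr11:57567886-57568185 (minus strand) for UBE2L6. ISG15 held 3 cores, of which the first began at position -113 from the RefSeq start, and IFIT3 held 2, with the first at -155. IFIT1 and MX1 also held 2 each, SAMD9 held 1 and UBE2L6 held 0. Across the genes described here the core was found in 18 of 28 windows (64.3%), against 8.11% of 34796 RefSeq windows of the same length. A second motif, TTCNNNGAA, the form bound by STAT dimers, was found in 9 of 28 (32.1%), against 7.67% of all windows. A match describes the letters only, and a window without one says nothing of which factors act on the gene.

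Absence from a table was uneven between the lines. IFIH1, DDX60, IFIT1, IFIT2, OAS1, OAS2, BST2, SAMD9, PARP9 and IFI44 are listed for HOS and not for 143B, IFI27, IFI44L and TRIM22 for neither, and 0 of the 34 for 143B alone. Thus 21 of the 31 HOS-listed genes (67.7%) also stand in the 143B table, where 92.2% of all HOS-listed genes do. The 10 genes listed for HOS only had mean levels of 0.715 to 10.13 FPKM in HOS NC libraries. Genes are listed only with more than 0.5 FPKM in 2 or more libraries, so what an unlisted gene measured is not known, and it is not given as 0.

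In 143B, ISG15, IFIT3 and MX1 rose in sgNAT10 libraries and UBE2L6, IFITM1 and IRF9 fell. These were 3 rises and 3 falls among 20 genes tested, where 12.9% of all genes tested rose and 25.4% fell. The 143B counts were thus near or under the shares over all genes. IFITM1 passed the level for testing through NC libraries alone, and without genes of that kind 3 rose and 2 fell of 19, where 9.96% of all genes rose and 22.5% fell. In bulk RNA of this kind, fewer cells of a type and less RNA per cell cannot be told apart. In HOS, 12 genes fell and 5 rose among 29 tested in the libraries labelled sgNAT10, where 23% of all genes fell and 45.5% rose. DDX60 passed that level through NC libraries alone, and without genes of that kind 11 fell and 5 rose of 28, where 23.2% of all genes fell and 44.4% rose. The falls covered all 4 IFIT genes, SAMD9, IFI44, SP100, PARP9, HERC6, IFITM1, DDX60 and IFI35, and the rises were IRF1, OAS3, STAT2, IFI6 and PARP14. The median log2 change of the tested genes was -0.17 in 143B, where that of all genes was -0.25, and -0.21 in HOS, where that of all genes was 0.19. A call is an adjusted p under 0.05 in limma, on log2(FPKM + 1), over all genes that reach 1 FPKM in 2 or more of a line's 4 libraries. HERC6 in 143B, and OAS2 and BST2 in HOS, were listed and did not reach that level.

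**Figure D1:**
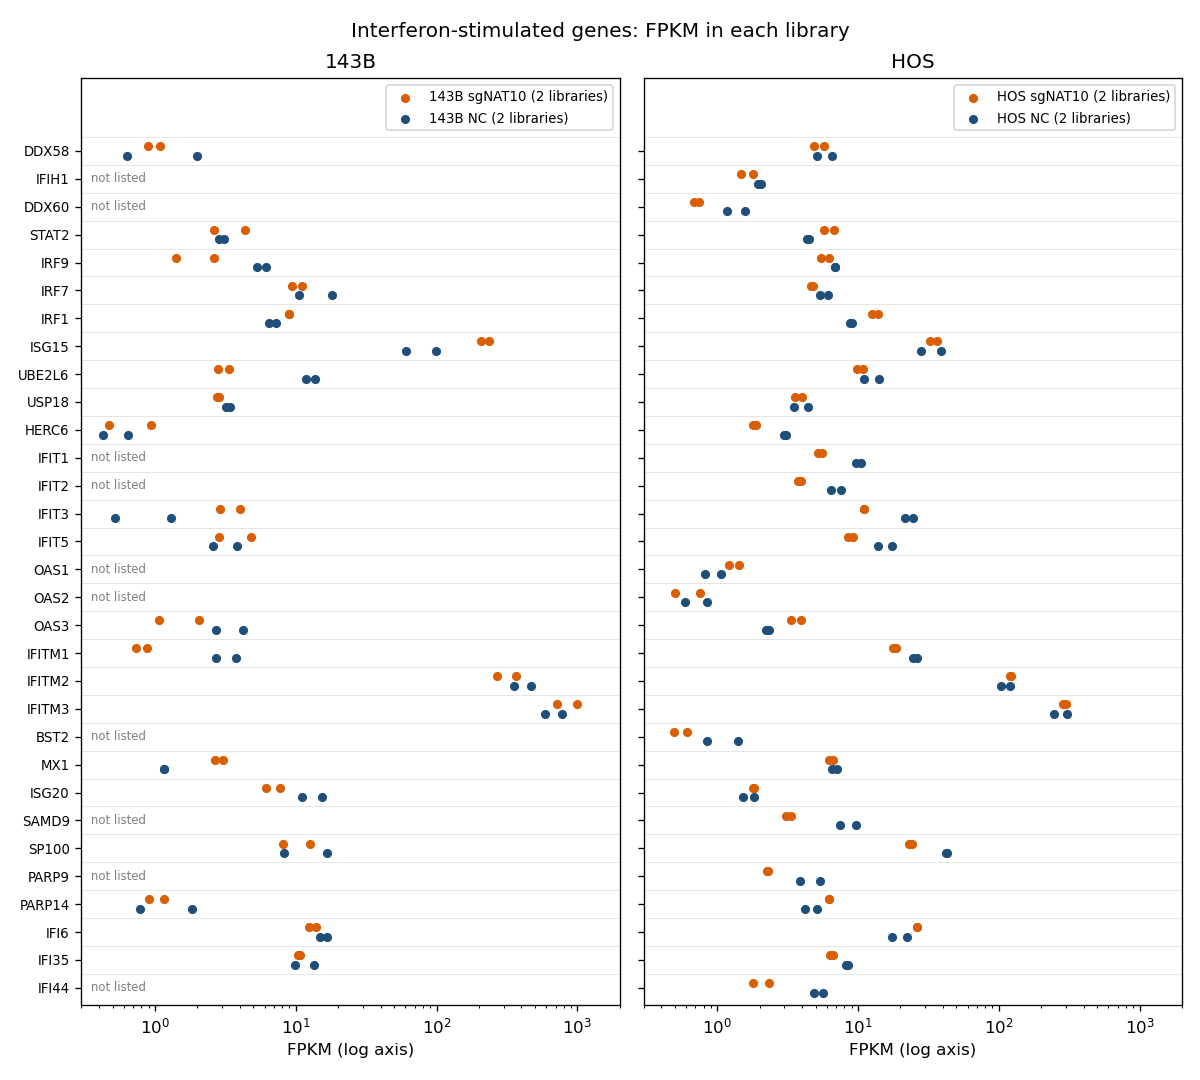
FPKM (log axis) of each interferon-stimulated gene in each library, 143B left and HOS right, with sgNAT10 libraries in orange above NC libraries in blue. ISG15, IFIT3 and MX1 lie higher in sgNAT10 libraries of 143B, while the 4 IFIT genes lie lower in the HOS libraries labelled sgNAT10.

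**Figure D2:**
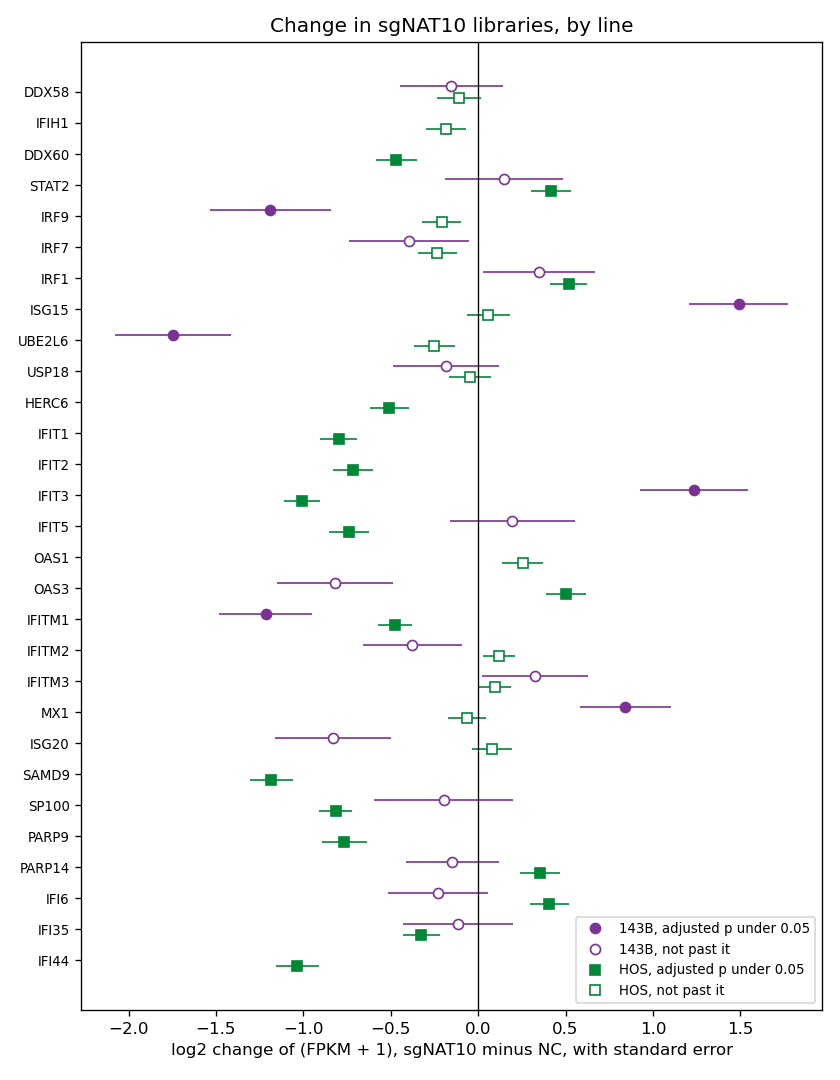
Change in sgNAT10 against NC libraries on the log2(FPKM + 1) scale, with its standard error, for 143B (circles) and HOS (squares). Filled symbols have an adjusted p under 0.05, and IFIT3 is filled on both sides of 0, at 1.23 in 143B and -1.01 in HOS.

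The sensors bind foreign RNA in the cytosol and signal toward interferon genes. DDX58, which encodes RIG-I, the sensor of RNA with uncapped ends, did not pass the test in either line, with log2 changes of -0.15 (adjusted p = 0.715) in 143B and -0.11 (adjusted p = 0.439) in HOS. IFIH1, which encodes MDA5, a sensor of long double-stranded RNA, stood at 1.48 and 1.8 FPKM in HOS libraries labelled sgNAT10, against 1.95 and 2.03 FPKM in HOS NC libraries, and did not pass either (adjusted p = 0.166). DDX60, a helicase reported to assist RIG-I, had 0.74 and 0.68 FPKM in HOS libraries labelled sgNAT10, against 1.57 and 1.18 FPKM in HOS NC libraries. Its groups did not overlap, and its log2 change was -0.47 (SE 0.12, adjusted p = 0.00206). DDX60 reached the level for testing through the NC libraries only, so reaching it already made the gene lower in the other libraries.

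Among the transcription factors, IRF9 fell in 143B, and STAT2 and IRF1 rose in HOS. IRF9, the DNA-binding subunit of ISGF3, stood at 1.4 and 2.61 FPKM in 143B sgNAT10 libraries, against 6.19 and 5.26 FPKM in 143B NC libraries. That is a log2 change of -1.19 (SE 0.35, adjusted p = 0.0261), and in HOS its change was -0.21 (adjusted p = 0.102), with 5.45 and 6.2 FPKM in libraries labelled sgNAT10, against 6.87 and 6.88 FPKM in NC libraries. The full transcript used for IRF9 is shared with an overlapping readthrough gene, AL136295.5, so that reads of the 2 cannot be told apart in such a table. STAT2, the partner of IRF9, had 6.77 and 5.7 FPKM in HOS libraries labelled sgNAT10, against 4.34 and 4.47 FPKM in HOS NC libraries. It rose there by 0.42 (SE 0.11, adjusted p = 0.00389) on the log2 scale, and in 143B its values were 2.61 and 4.34 FPKM in sgNAT10 libraries, against 2.84 and 3.09 FPKM in NC libraries, which overlap. IRF1, a factor induced above all by interferon gamma, had 13.9 and 12.5 FPKM in HOS libraries labelled sgNAT10, against 8.73 and 9.09 FPKM in HOS NC libraries. Its HOS change was 0.52 (SE 0.11, adjusted p = 0.000363), and C5orf56 on the opposite strand covers 22% of its exonic bases, with no strand setting given in the sources used here. In 143B, IRF1 stood at 9 and 8.91 FPKM in sgNAT10 libraries, against 6.4 and 7.26 FPKM in NC libraries, also without overlap, and did not pass the test (log2 0.35, adjusted p = 0.423). IRF7, which amplifies interferon production, did not pass in 143B (log2 -0.40, adjusted p = 0.395) or in HOS (log2 -0.23, adjusted p = 0.0716).

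In the ISG15 system of 143B the modifier rose and its conjugating enzyme fell. ISG15, a ubiquitin-like protein attached to other proteins, lies on chromosome 1 (1001138 to 1014540, plus strand). It stood at 207 and 235 FPKM in 143B sgNAT10 libraries, against 98.8 and 61.1 FPKM in 143B NC libraries. Both sgNAT10 libraries lay above both NC libraries, for means of 221 ± 19.9 FPKM in sgNAT10 and 79.9 ± 26.6 FPKM in NC (SD, n = 2 each), 2.76 times as high, and the log2 change was 1.49 (SE 0.28, adjusted p = 0.00491). In HOS the groups overlapped, at 32.3 and 36.5 FPKM in libraries labelled sgNAT10, against 28.2 and 38.5 FPKM in NC libraries (log2 0.06, adjusted p = 0.683).

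UBE2L6, the enzyme that conjugates ISG15, lies on chromosome 11 (57551656 to 57568284, minus strand). It stood at 2.82 and 3.37 FPKM in 143B sgNAT10 libraries, against 13.7 and 11.8 FPKM in 143B NC libraries. The NC mean was 4.11 times the sgNAT10 mean, and the log2 change of -1.74 (SE 0.33, adjusted p = 0.00491) was the largest fall among the 20 interferon-stimulated genes tested in 143B. In HOS it had 10.8 and 9.85 FPKM in libraries labelled sgNAT10, against 11.1 and 14.1 FPKM in NC libraries, and did not pass (log2 -0.25, adjusted p = 0.0664). USP18, the protease that removes ISG15 and restrains the interferon receptor, did not pass in 143B (log2 -0.18, adjusted p = 0.668) or in HOS (log2 -0.05, adjusted p = 0.749); 23.4% of its transcript's short stretches recur in other genes, nearly all in USP41. HERC6, which in mouse is the main ligase for ISG15, had 1.89 and 1.79 FPKM in HOS libraries labelled sgNAT10, against 3.1 and 2.98 FPKM in HOS NC libraries. Its log2 change in HOS was -0.51 (SE 0.11, adjusted p = 0.000662). At 0.47 and 0.93 FPKM in 143B sgNAT10 libraries, against 0.43 and 0.64 FPKM in 143B NC libraries, it was too low to test there.

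The IFIT genes encode proteins that bind viral RNA with foreign ends, and they lie side by side on chromosome 10, in the order IFIT2, IFIT3, IFIT1 and IFIT5, from 89283694 to 89421001 on the plus strand. All 4 fell in HOS. IFIT1, which binds caps without ribose methylation, had 5.23 and 5.56 FPKM in HOS libraries labelled sgNAT10, against 10.6 and 9.71 FPKM in HOS NC libraries, a log2 change of -0.80 (SE 0.11, adjusted p = 7.19e-06). IFIT2, its partner, had 3.74 and 3.95 FPKM in HOS libraries labelled sgNAT10, against 7.53 and 6.4 FPKM in HOS NC libraries, with a change of -0.71 (SE 0.11, adjusted p = 3.9e-05). Beside the falls of these 4, 23% of all genes tested in HOS fell.

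IFIT3, which stabilises IFIT1, changed in opposite directions in the lines. In 143B it had 3.99 and 2.88 FPKM in sgNAT10 libraries, against 0.52 and 1.3 FPKM in NC libraries, and a log2 change of 1.23 (SE 0.31, adjusted p = 0.0137). HOS libraries labelled sgNAT10 held 10.9 and 11.1 FPKM, against 24.7 and 21.7 FPKM in HOS NC libraries, a change of -1.01 (SE 0.10, adjusted p = 4.18e-07). The test of the difference between the lines gave 2.24 (SE 0.35, adjusted p = 0.000914), 143B minus HOS. Even so, its highest 143B library, at 3.99 FPKM, lay below its lowest HOS library, at 10.9 FPKM, although these levels come from tables normalized separately. IFIT5, which binds RNA with phosphate ends, had 8.49 and 9.25 FPKM in HOS libraries labelled sgNAT10, against 17.4 and 13.8 FPKM in HOS NC libraries, a change of -0.74 (SE 0.12, adjusted p = 3.24e-05). In 143B the IFIT5 groups overlapped, at 2.84 and 4.83 FPKM in sgNAT10 libraries, against 2.56 and 3.79 FPKM in NC libraries, and the difference between the lines did not pass (log2 0.94, adjusted p = 0.0631).

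The OAS enzymes make oligoadenylates that activate RNase L. OAS3 had 3.36 and 3.94 FPKM in HOS libraries labelled sgNAT10, against 2.35 and 2.21 FPKM in HOS NC libraries, and rose there, with 0.50 (SE 0.11, adjusted p = 0.000997) on the log2 scale. In 143B it lay on the other side, at 1.07 and 2.04 FPKM in sgNAT10 libraries, against 2.73 and 4.24 FPKM in NC libraries, without passing the test there (log2 -0.82, adjusted p = 0.0804). The difference between the lines passed, at -1.32 (SE 0.33, adjusted p = 0.00938), and did not pass under the correction for length and GC content, at -0.09 (adjusted p = 0.794). OAS1 had 1.22 and 1.42 FPKM in HOS libraries labelled sgNAT10, against 1.07 and 0.82 FPKM in HOS NC libraries, and did not pass (adjusted p = 0.0611). OAS2, which was not tested, had 0.5 and 0.75 FPKM in HOS libraries labelled sgNAT10, against 0.84 and 0.59 FPKM in HOS NC libraries, and its groups overlap.

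IFITM proteins sit in membranes and hinder the entry of enveloped viruses, and their genes are neighbours on chromosome 11. IFITM1 fell in HOS and was also lower in 143B. Its level was 0.73 and 0.88 FPKM in 143B sgNAT10 libraries, against 3.73 and 2.71 FPKM in 143B NC libraries, and its groups did not overlap. The log2 change was -1.22 (SE 0.27, adjusted p = 0.00825). Only through its 143B NC libraries did IFITM1 reach the level for testing there, so reaching it already made the gene lower in the other libraries, and the 143B values are a description. HOS libraries labelled sgNAT10 held 17.7 and 18.5 FPKM of IFITM1, against 26.4 and 24.7 FPKM in HOS NC libraries, a change of -0.48 (SE 0.10, adjusted p = 0.000362). Of the short stretches of its transcript 42.3% recur in other genes, 39% in IFITM2, so reads may be split between these genes. IFITM2 and IFITM3 were the most abundant of the genes described here, IFITM3 at 1000.1 and 719 FPKM in 143B sgNAT10 libraries, against 783 and 586 FPKM in 143B NC libraries. Neither passed the test in 143B (log2 -0.38, adjusted p = 0.324 for IFITM2 and log2 0.32, adjusted p = 0.432 for IFITM3) or in HOS (log2 0.12, adjusted p = 0.249 for IFITM2 and log2 0.09, adjusted p = 0.392 for IFITM3). BST2, which tethers budding virions, was listed for HOS only and not tested, at 0.49 and 0.61 FPKM in libraries labelled sgNAT10, against 1.4 and 0.85 FPKM in NC libraries.

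Of the other antiviral effectors, MX1 rose in 143B and SAMD9 and SP100 fell in HOS. MX1, a dynamin-like GTPase that traps viral particles, had 3.06 and 2.68 FPKM in 143B sgNAT10 libraries, against 1.15 and 1.16 FPKM in 143B NC libraries, a log2 change of 0.84 (SE 0.26, adjusted p = 0.0321). HOS libraries labelled sgNAT10 had 6.23 and 6.65 FPKM, against 6.49 and 7.09 FPKM in HOS NC libraries, and MX1 did not pass there (log2 -0.07, adjusted p = 0.604). SAMD9, a restriction factor for poxviruses, had 3.08 and 3.32 FPKM in HOS libraries labelled sgNAT10, against 9.72 and 7.47 FPKM in HOS NC libraries. The SAMD9 change of -1.18 (SE 0.12, adjusted p = 5.41e-07) was the largest fall among the 29 interferon-stimulated genes tested in HOS, with an NC mean 2.69 times that of the libraries labelled sgNAT10.

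SP100, a component of nuclear PML bodies, had 22.9 and 24.2 FPKM in HOS libraries labelled sgNAT10, against 42.5 and 41.9 FPKM in HOS NC libraries, and a log2 change of -0.82 (SE 0.09, adjusted p = 1.22e-06). Short stretches found in other genes, mostly the pseudogene HMGB1P3, make up 13.3% of its transcript. Its 143B groups overlapped, at 8.1 and 12.7 FPKM in sgNAT10 libraries, against 8.22 and 16.7 FPKM in NC libraries. ISG20, an exonuclease for viral RNA, had 7.68 and 6.18 FPKM in 143B sgNAT10 libraries, against 15.4 and 11 FPKM in 143B NC libraries. Although these groups did not overlap, ISG20 did not pass in 143B (log2 -0.83, adjusted p = 0.0771). It had 1.82 and 1.8 FPKM in HOS libraries labelled sgNAT10, against 1.52 and 1.81 FPKM in HOS NC libraries, and its difference between the lines was -0.91 (SE 0.30, adjusted p = 0.0325).

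PARP9 and PARP14, which lie 116040 bases apart on chromosome 3 and encode ADP-ribosyltransferase family proteins, changed in opposite directions in HOS. PARP9, which works with the ubiquitin ligase DTX3L, had 2.26 and 2.31 FPKM in HOS libraries labelled sgNAT10, against 5.41 and 3.86 FPKM in HOS NC libraries, a log2 change of -0.76 (SE 0.13, adjusted p = 6.8e-05). PARP14 had 6.25 and 6.22 FPKM in HOS libraries labelled sgNAT10, against 5.15 and 4.21 FPKM in HOS NC libraries, a change of 0.35 (SE 0.12, adjusted p = 0.012). PARP14 overlapped in 143B, at 0.9 and 1.16 FPKM in sgNAT10 libraries, against 0.78 and 1.83 FPKM in NC libraries.

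The IFI genes, named only for their induction by interferon, also split in HOS. IFI44, a cytoplasmic protein, had 1.79 and 2.33 FPKM in HOS libraries labelled sgNAT10, against 5.63 and 4.88 FPKM in HOS NC libraries, a log2 change of -1.03 (SE 0.12, adjusted p = 1.82e-06). IFI35, a leucine zipper protein, had 6.36 and 6.59 FPKM in HOS libraries labelled sgNAT10, against 8.21 and 8.51 FPKM in HOS NC libraries, a change of -0.32 (SE 0.11, adjusted p = 0.0123). IFI6, a membrane protein that limits cell death, had 26.4 and 26.4 FPKM in HOS libraries labelled sgNAT10, against 17.4 and 22.2 FPKM in HOS NC libraries, a change of 0.41 (SE 0.11, adjusted p = 0.00362). In 143B neither IFI6 (log2 -0.23, adjusted p = 0.565) nor IFI35 (log2 -0.12, adjusted p = 0.796) passed the test.

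Most of the falls in HOS had no counterpart to compare in 143B. Of the 12 genes that fell in HOS, 7 were not tested in 143B: IFIT1, IFIT2, DDX60, SAMD9, PARP9, IFI44 and HERC6. Among the 20 genes tested in both lines, 5 fell and 5 rose in HOS, where 23% of all genes tested in HOS fell and 45.5% rose. The changes of these 20 differed between the lines for 7 in a fit over all 8 libraries, given as 143B minus HOS. IFIT3 (log2 2.24, adjusted p = 0.000914), ISG15 (log2 1.43, adjusted p = 0.00907) and MX1 (log2 0.91, adjusted p = 0.0121) had the higher change in 143B, 3 of 20, where 12.9% of all genes did. UBE2L6 (log2 -1.49, adjusted p = 0.00304), OAS3 (log2 -1.32, adjusted p = 0.00938), IRF9 (log2 -0.98, adjusted p = 0.0324) and ISG20 (log2 -0.91, adjusted p = 0.0325) had the lower one, 4 of 20, where 36.2% of all genes did. The other 13 did not pass, with IFITM1 (log2 -0.74, adjusted p = 0.0578) closest to the threshold. IFIT3, ISG15 and UBE2L6 kept their calls under every alternative run. IRF9 and ISG20 lost theirs under median-ratio scaling, quantile normalization and the length and GC correction, where the values closest to 0 were -0.29 for IRF9 and -0.28 for ISG20. MX1 lost its call when libraries were scaled to a common sum (0.51, adjusted p = 0.104), and OAS3 under the length and GC correction, as given above.

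Part of the calls depended on how the libraries were scaled. Median-ratio scaling brought the median log2 change of all genes to -0.02 in 143B and -0.01 in HOS. Calls over all genes were then 2361 rises and 2541 falls in 143B, against 1473 and 2897 as deposited, and 3762 rises and 4038 falls in HOS, against 5444 and 2751 as deposited. Of the 12 falls in HOS, 11 were called under each of 4 other scalings; IFI35 was not when libraries were scaled to a common sum, nor without either HOS library labelled sgNAT10. None of the 5 HOS rises was called under all 4: STAT2 and PARP14 lost the call under 3 of them, OAS3 under 2, IFI6 under median-ratio scaling and IRF1 under a correction for length and GC content, which also turned OAS3 to -0.15. In 143B, ISG15, UBE2L6 and IRF9 kept their calls under all 4, whereas IFIT3 and MX1 lost theirs under the common sum. IFITM1 also kept its call, but it reached the level for testing through NC libraries alone, so keeping it adds no support. The same holds for DDX60 among the 11 HOS falls kept. Without 1 sgNAT10 library of 143B, whichever was left out, ISG15 was the only rise and UBE2L6 the only fall still called there. Without the first HOS library labelled sgNAT10, STAT2 and PARP14 were not called in HOS. PARP14 was also not called without the second of these libraries, or without the second HOS NC library. In the difference between lines, IRF9 and ISG20 lost their calls without any 1 of the HOS libraries, while UBE2L6 and OAS3 kept theirs. With 1 spread for each gene from all 8 libraries, which tests only genes passing in both tables, IFIT3 was the 1 fall called in HOS and there were 0 rises, by limma, with 5 of 20 genes at an unadjusted p under 0.05.

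**Figure D3:**
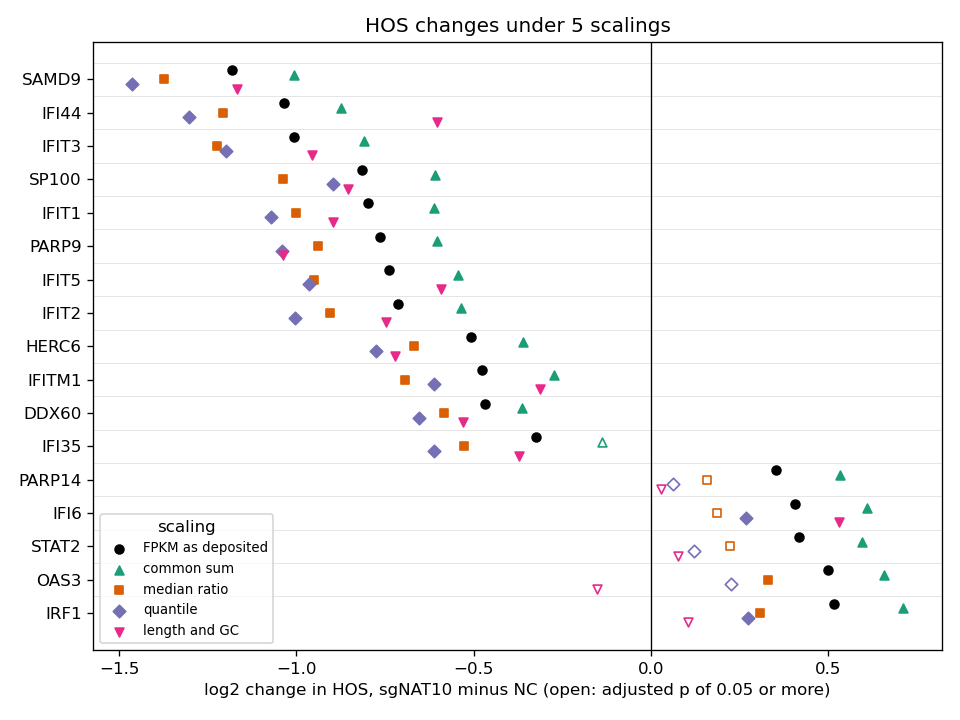
Log2 change in HOS, libraries labelled sgNAT10 minus NC, of the 17 interferon-stimulated genes called there, under 5 scalings (open symbols have an adjusted p of 0.05 or more). The falls stay on the left under each scaling, while the 5 rises move toward 0 under several and OAS3 crosses it under the length and GC correction.

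Control levels were compared side by side and not tested, since the tables were normalized separately. Of the 21 genes listed for both lines, 7 had both 143B NC libraries above both HOS NC libraries, 13 had both below, and UBE2L6 overlapped. Over all 11807 shared genes 37.4% lay above in this way, 50.9% below and 11.7% overlapped. The median level of the 21 genes was 5.72 FPKM in 143B NC, against 8.36 FPKM in HOS NC, and over all 11807 shared genes it was 7.21 FPKM in 143B NC, against 9.99 FPKM in HOS NC. By mean, 8 of the 21 genes were higher in 143B NC, where 43.1% of all shared genes were; by rank within a library 12 of 21 were, beside 49.0% of all shared genes, and after median-ratio scaling 11, beside 49.7%.

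The widest gaps between the control lines lay in single genes. IFIT3 stood at 0.52 and 1.3 FPKM in 143B NC libraries, against 24.7 and 21.7 FPKM in HOS NC libraries, 25.5 times as high in HOS by the means. IFITM1 was 7.93 times, MX1 5.88 times, HERC6 5.68 times, IFIT5 4.9 times and DDX58 4.45 times as high in HOS NC by the means. In the other direction, ISG20 stood at 15.4 and 11 FPKM in 143B NC libraries, against 1.52 and 1.81 FPKM in HOS NC libraries, a ratio of 7.94. IFITM2 was 3.67 times, IRF7 2.48 times, IFITM3 2.47 times and ISG15 2.4 times as high in 143B NC. Of the IFITM family, IFITM1 was thus lower and IFITM2 and IFITM3 were higher in 143B NC than in HOS NC.

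**Figure D4:**
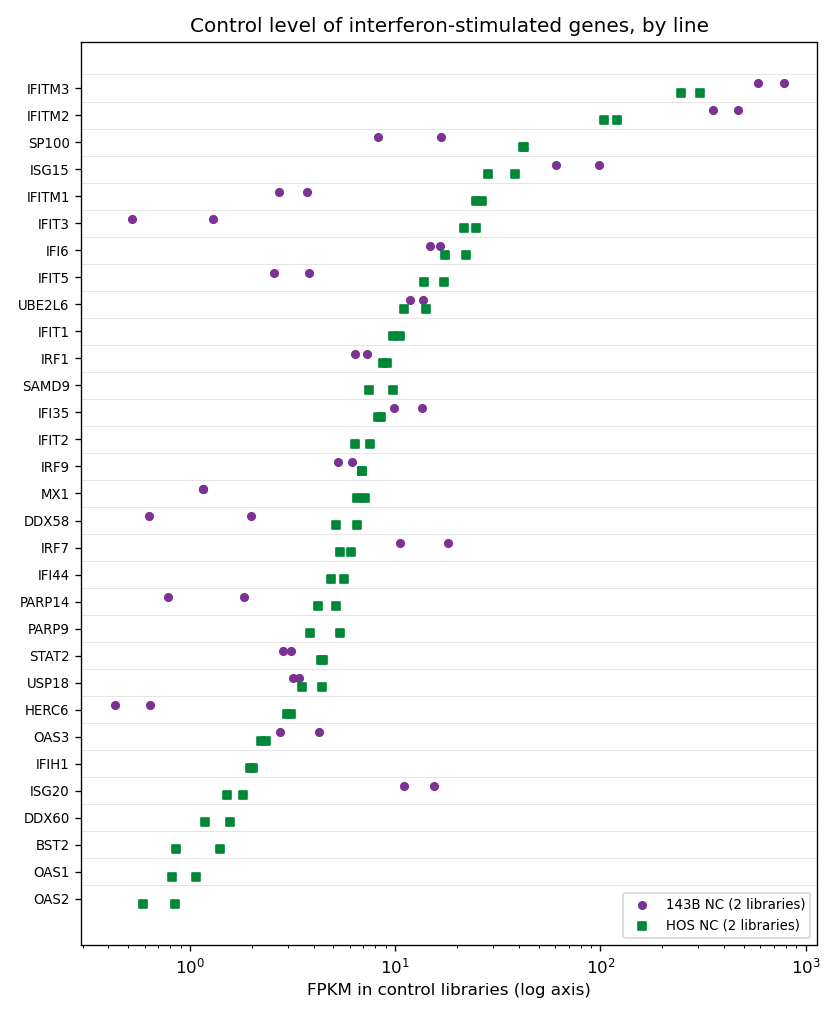
FPKM (log axis) of the interferon-stimulated genes in the 2 NC libraries of 143B (circles) and of HOS (squares), ordered by their level in HOS. IFIT3 lies 25.5 times higher in HOS by the means and ISG20 7.94 times higher in 143B, and 10 genes have HOS values only.

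The rest of the pathway was counted from lists that hold none of the 34 genes. Counts are at the deposited scaling, under which the median over all genes lay at -0.25 in 143B and 0.19 in HOS. The shares over all genes that each count stands beside are 12.9% risen and 25.4% fallen in 143B, and 45.5% risen and 23% fallen in HOS. The genes named first have the largest mean change over both lines among those tested in both. That choice passes over opposite changes, so those are given after them. It also passes over genes tested in 1 line and changes seen mainly in 1 line. Examples in HOS are GBP1, not listed for 143B (log2 -1.49), and SOCS3 (log2 1.44). The counts include genes that reached the level for testing through 1 label's libraries alone. In 143B these include IFNLR1, CGAS, APOL1, XAF1, ALPL and CD14, whose values there are a description. IFNLR1 reached that level in the same way in HOS, so its HOS values are a description as well. Of 10 interferon ligand genes 0 are listed in either table. Of 15 receptor and JAK-STAT genes tested in 143B 2 rose and 4 fell, and of 16 in HOS 8 rose and 3 fell. The phosphatase PTPN11 rose in both lines (log2 1.19, adjusted p = 0.0482 in 143B and log2 0.47, adjusted p = 0.000406 in HOS). IFNGR1, a chain of the interferon gamma receptor, fell in both. Its changes were log2 -1.16 (adjusted p = 0.0228) in 143B and log2 -0.37 (adjusted p = 0.0043) in HOS. IFNLR1, a chain of the interferon lambda receptor, was higher in sgNAT10 libraries of both lines (log2 0.83 in 143B and 0.43 in HOS). Those libraries alone brought IFNLR1 to the level for testing. STAT3 rose in HOS (log2 0.43, adjusted p = 0.0011) and did not pass in 143B (log2 0.78, adjusted p = 0.0955). IFNGR2, TYK2 and SOCS1 fell in 143B (log2 -0.97, -1.13 and -0.95) and rose in HOS (log2 0.36, 0.33 and 0.36).

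Of 17 nucleic acid sensing genes tested in 143B 1 rose and 5 fell, and of 17 in HOS 9 rose and 3 fell. TBK1, the kinase that activates interferon regulatory factors, fell in HOS (log2 -0.44, adjusted p = 0.00103) and did not pass in 143B (log2 -0.90, adjusted p = 0.0544), and its partner TANK likewise (log2 -0.76, adjusted p = 8.58e-06 in HOS and log2 -1.04, adjusted p = 0.0545 in 143B). TREX1, a nuclease that clears cytosolic DNA, fell in 143B (log2 -1.54, adjusted p = 0.0132) and did not pass in HOS (log2 -0.25, adjusted p = 0.0891). The kinase EIF2AK2, known as PKR, did not pass in 143B (log2 1.09, adjusted p = 0.0595) or in HOS (log2 0.22, adjusted p = 0.0616). TICAM1, CGAS, TMEM173 and TRAF3 fell in 143B (log2 -2.02, -1.84, -1.73 and -1.20) and rose in HOS (log2 0.81, 0.998, 0.59 and 0.75).

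Of 30 further interferon-stimulated genes tested in 143B 4 rose and 7 fell, and of 41 in HOS 14 rose and 15 fell. ZC3HAV1, which directs decay of viral RNA, rose in both lines (log2 1.45, adjusted p = 0.0139 in 143B and log2 0.77, adjusted p = 8.13e-06 in HOS). DTX3L, the partner of PARP9, rose in HOS (log2 0.68, adjusted p = 5.18e-05), where PARP9 fell, and did not pass in 143B (log2 0.90, adjusted p = 0.0544). APOL1, a lipid-binding protein of innate defence, rose in 143B (log2 1.65, adjusted p = 0.00234) and the scramblase PLSCR1 fell there (log2 -1.96, adjusted p = 0.00674) and neither passed in HOS (log2 -0.09, adjusted p = 0.46 for APOL1 and log2 0.04, adjusted p = 0.706 for PLSCR1). XAF1 rose in 143B (log2 1.56) and fell in HOS (log2 -0.55). IFI30, HELZ2 and PML fell in 143B (log2 -1.70, -1.50 and -0.91) and rose in HOS (log2 0.94, 0.45 and 0.50). Of 12 antigen presentation genes tested in 143B 3 rose and 3 fell, and of 12 in HOS 2 rose and 4 fell. B2M, the light chain of class I molecules, fell in HOS (log2 -0.90, adjusted p = 1.08e-07) and did not pass in 143B (log2 -0.72, adjusted p = 0.139). The peptide transporter gene TAP1 fell in 143B (log2 -1.22, adjusted p = 0.0137) and did not pass in HOS (log2 0.04, adjusted p = 0.718), and TAP2 fell in 143B (log2 -1.87, adjusted p = 0.00202) and rose in HOS (log2 0.48, adjusted p = 0.000851). ERAP1, an aminopeptidase that trims peptides for class I molecules, fell in 143B (log2 -1.05, adjusted p = 0.0242) and did not pass in HOS (log2 -0.11, adjusted p = 0.39). PSME2 rose in 143B (log2 0.77) and fell in HOS (log2 -0.64).

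Most markers of other cell types are not listed. Of 12 blood and immune markers 3 are listed (CD14, LYZ and CD68; PTPRC is not), and they summed to 52.5 to 57.6 FPKM in 143B sgNAT10 libraries, against 106 to 129 FPKM in 143B NC libraries, and to 19.1 to 19.5 FPKM in HOS libraries labelled sgNAT10, against 17.9 to 18.2 FPKM in HOS NC libraries. CD68 makes up most of these sums. In 143B, CD68 (log2 -1.24, adjusted p = 0.00547) and CD14 (log2 -1.40, adjusted p = 0.00178) were lower, whereas LYZ rose, at 7.33 and 6.89 FPKM in sgNAT10 libraries, against 0.69 and 1.3 FPKM in NC libraries (log2 2.04, adjusted p = 0.00271), and none of the 3 passed in HOS. Of 10 mesenchymal markers 8 are listed for 143B (COL1A2 and THY1 are not) and 10 for HOS. These summed to 520 to 820 FPKM in 143B sgNAT10 libraries, against 1405 to 1834 FPKM in 143B NC libraries, and to 2034 to 2087 FPKM in HOS libraries labelled sgNAT10, against 1630 to 1830 FPKM in HOS NC libraries. In 143B the sum is nearly all VIM, at 482 and 766 FPKM in sgNAT10 libraries, against 1339 and 1741 FPKM in NC libraries. Of 7 tested in 143B 5 fell, among them ALPL (log2 -1.89, adjusted p = 0.00189), FN1 (log2 -1.83, adjusted p = 0.00722) and SPARC (log2 -1.30, adjusted p = 0.00852), and 0 rose; CDH2 (log2 0.70, adjusted p = 0.198) and S100A4 (log2 0.65, adjusted p = 0.158) had higher means in sgNAT10 and did not pass. Of 10 tested in HOS 6 rose, FN1 (log2 0.36, adjusted p = 0.00186) and CDH2 (log2 0.54, adjusted p = 0.0001) among them, and 0 fell. Of 6 epithelial markers 3 are listed (EPCAM, KRT8 and KRT18; CDH1 is not), summing to 3763 to 4989 FPKM in 143B sgNAT10 libraries, against 2303 to 3421 FPKM in 143B NC libraries, and to 944 to 953 FPKM in HOS libraries labelled sgNAT10, against 670 to 773 FPKM in HOS NC libraries. KRT18 makes up most of each sum; it rose in HOS (log2 0.65, adjusted p = 5.3e-06) and did not pass in 143B (log2 0.65, adjusted p = 0.2), and KRT8 and EPCAM passed in neither. Of 5 endothelial markers 0 are listed for 143B and 2 for HOS, where they sum to 2.02 FPKM at most. Several mesenchymal markers thus moved with the label in both lines, CD68 and LYZ in 143B and KRT18 in HOS. These marker changes stood beside those of ISG15 and UBE2L6 in 143B and of the IFIT genes in HOS. What part the markers' changes had in those of the interferon-stimulated genes was not tested.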

How the data were processed

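Per the labels' protocols, polyadenylated RNA was made into BGISeq-500 libraries. The authors deposited FPKM values in 1 table for each line, and GRCh38, Bowtie2, RSEM and DESeq2 appear in the submitters' processing notes without versions or roles; strand settings are not given in the sources used here. No read counts are used here, so the depth behind a value is unknown.

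From the deposited FPKM, log2(FPKM + 1) was computed, which understates changes of low genes. Genes reaching 1 FPKM in 2 or more of a line's 4 libraries were tested in limma 3.58.1 (R 4.3.3, empirical Bayes moderation with a mean trend, two-sided, Benjamini-Hochberg adjustment over all genes, threshold 0.05), as sgNAT10 minus NC within each table. A joint fit of 8 libraries tested the difference between lines, over genes passing in both tables, with 1 spread for both lines. With 2 libraries against 2, an exact permutation test cannot go below p = 0.33. Nothing says that a group's libraries came from separate cultures, and the p-values therefore measure only a spread between samples that may be technical. The fit was tested on simulated data.

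The members and gene lists were chosen with earlier results of these data known. By rule, members called in any fit are given with each library's value and the others by group. Of each other list up to 4 are given, those with the largest mean change over both lines among genes tested in both. GBP1 and SOCS3, and among the markers S100A4 and VIM, were added after their values were seen. Positions and shared stretches (50 bases) are from a GENCODE annotation of GRCh38 and promoter windows from RefSeq (GRCh38.p14). Alternatives were other pseudocounts (0.1 and 5), no filter or one of 5 FPKM, other scalings, no intensity trend, a replicate block, a shared spread and leaving out each library. A length and GC correction (spline with 4 degrees of freedom) and a crossed block in HOS were added after seeing the data.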

Additional observations from a re-analysis of the deposited data

Results flagged for a closer look

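For 7 genes the change with the sgNAT10 label differed between the lines, by the test of the difference itself in the fit over all 8 libraries. IFIT3 had the largest, at 2.24 on the log2 scale (143B minus HOS), with a rise in 143B and a fall in the HOS libraries labelled sgNAT10. ISG15, at 1.43, and MX1, at 0.91, rose in 143B and did not pass the test in HOS. UBE2L6, at -1.49, and IRF9, at -0.98, fell in 143B and did not pass in HOS. OAS3, at -1.32, rose in HOS and did not pass in 143B. ISG20, at -0.91, passed in neither line alone. Of the 7, IFIT3, ISG15 and UBE2L6 kept the call under each of 4 other scalings, MX1 and OAS3 under 3 of them, and IRF9 and ISG20 under 1. NAT10 RNA also differed between the lines under this label, with a difference of -1.41, and what part that had in these differences was not tested.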

How the results depend on the processing

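Under the alternatives, 116 of 150 counts stayed within 1.5 times the reported one. Of 1073 values of single genes, 939 kept their side of the threshold, 66 of them with a change of sign while not called either way. A call was lost for 57 and gained for 73, and 4 reversed. The 4 arose under the length and GC correction: OAS3 in HOS (-0.15), and the difference between lines of STAT2 (0.59), IRF7 (0.76) and IRF1 (0.85). Rises in 143B (3 of 20 tested as reported) numbered 1 at a 5 FPKM filter, which tested 11 of the genes, without IFIT3 and MX1. Over all genes 919 of 7199 rose at that filter. Rises numbered 1 at a common sum, where 896 of 11419 genes rose, and 5 under the length and GC correction, where 3069 did. Falls there (3) numbered 5 with a shared spread, where 3788 of 10655 genes fell. Rises in HOS (5) numbered 9 at a common sum, where 7075 of 11957 genes rose, and 2 with median-ratio scaling, where 3762 did. With a shared spread they numbered 0, where 1562 of 10655 genes rose. Falls in HOS (12 of 29 tested) numbered 19 under quantile normalization, where 3799 of 11957 genes fell. The shared spread gave 1 fall, but it tested 20 of the 29, with 5 of the 12 falls among them. It called 1864 of 10655 genes in all, 302 of them falls, against 8195 of 11957 as reported. For the difference between lines, higher changes (3 of 20 tested) numbered 1 at a 5 FPKM filter, which tested 10 of the 20. They numbered 5 with median-ratio scaling, 6 under quantile normalization and 9 under the length and GC correction. Over all 10655 genes the higher changes then numbered 2662, 2810 and 2935. Lower changes (4) numbered 2 at that filter and 7 at a common sum, where 5156 of 10655 genes had one. With median-ratio scaling they numbered 2, where 2709 of all genes had one. At the filter 997 of 6593 genes had a higher change and 2520 a lower one. Genes that a setting did not test could not be called under it, and the cause of the other shifts was not tested.

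Leaving out each library gave 1 to 3 rises, 1 to 3 falls and 1470 to 4208 genes called in 143B, against 4370 as reported. For the difference between lines it gave 2 to 5 higher changes, 2 to 5 lower ones and 3481 to 5872 genes, against 5235 as reported. IFITM1 in 143B could not be tested without either NC library, and DDX60 in HOS likewise.

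Deviations from the group means of libraries with the same number correlated at 0.61 in 143B and -0.11 in HOS, over 2 pairs a line. The main fit does not pair the libraries, since nothing says that the numbers do. The 143B value does not show that they are unpaired there. With a replicate block, 143B had 5 falls, beside 4915 falls among 11419 genes, and 7652 genes called. The difference between lines then had 5 higher and 7 lower changes, beside 2272 and 5086 of 10655 genes. A crossed replicate block in HOS gave 6 rises and 13 falls, beside 5592 and 2866 of 11957 genes. Depth is unknown, so the counting error of levels near 1 FPKM, such as those of DDX60 in HOS and of IFITM1 in 143B sgNAT10 libraries, cannot be given.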

Other observations

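Apart from the IFITM genes, the listed genes summed to 289 to 325 FPKM in 143B sgNAT10 libraries, against 170 to 212 FPKM in 143B NC libraries, and ISG15 made up most of the sgNAT10 sums, at 207 and 235 FPKM. In HOS they summed to 198 to 206 FPKM in libraries labelled sgNAT10, against 249.9 to 252 FPKM in NC libraries. The antigen presentation genes summed to 986 to 1030 FPKM in HOS libraries labelled sgNAT10, against 1624 to 1721 FPKM in HOS NC libraries, of which B2M alone had 712 and 749 FPKM in libraries labelled sgNAT10, against 1426 and 1305 FPKM in NC libraries. For 143B the same sums were 551 to 575 FPKM in sgNAT10 libraries, against 517 to 551 FPKM in NC libraries.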
